A study of Mus musculus with 6 samples.

Results

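The 10 genes described here encode the proteins that free fatty acids from circulating triglyceride, move them into adipocytes and bind them inside the cell: Lpl, Gpihbp1, Vldlr, Cd36, Slc27a1, Slc27a2, Slc27a4, Fabp3, Fabp4 and Fabp5. They were chosen by symbol for their known role, with earlier results of these data known, and all 10 were found among 47069 gene identifiers and had enough counts to be tested. RNA of inguinal subcutaneous white adipose tissue (SC-WAT), the fat pad of the groin, was sequenced from 6 female C57BL/6 mice at 2 weeks of age. Of these, 3 were wild type (Egr1+/+) and 3 were homozygous for an inactivated Egr1 allele (Egr1-/-), and each mouse gave 1 library. In the mutant allele LacZ sits before the Egr1 reading frame, which is itself shifted so that the zinc fingers are not made; it is a germline change, carried by every cell of the mouse and not only by the adipocyte. EGR1 is a zinc finger transcription factor. The labels give no treatment for any mouse.

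Triglyceride travels in chylomicrons and very low density lipoproteins. Lipoprotein lipase, made by adipocytes and myocytes, is carried to the capillary lumen by GPIHBP1 of the endothelial cell, and there it releases fatty acids from these particles. CD36 and the fatty acid transport proteins of the SLC27 family take fatty acids into the cell, the latter also coupling them to coenzyme A, and fatty acid binding proteins carry them through the cytosol. Many of these genes are targets of the PPAR nuclear receptors, and fatty acids are the fuel of thermogenic brown and beige adipocytes.

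The libraries held 29661984 to 42357981 gene counts, of which 50.0 to 66.3% fell on mitochondrially encoded genes. Levels are given as CPM, the read count of a gene relative to the size of its library after TMM scaling, mitochondrial counts included. Egr1 itself had 353, 241 and 711 counts in Egr1+/+ replicates 1, 2 and 3 and 103, 84 and 57 in the Egr1-/- replicates, and was lower in all 3 mutants (log2 fold change -2.19, adjusted p = 0.0878 in edgeR). In 2 mice, Egr1+/+ replicate 2 and Egr1-/- replicate 3, the summed level of 10 skeletal muscle genes reached 2877 and 2466 CPM, against 94.2 to 983 CPM in the others. The tissue markers were present in every mouse: 8 adipocyte genes summed to 2752 to 3925 CPM, 8 endothelial genes to 384 to 573 CPM, and 7 mammary epithelial genes to no more than 13.8 CPM. In such bulk tissue, fewer cells of a type and less RNA per cell cannot be told apart.

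The 3 fatty acid binding proteins are related genes, and a stretch of their coding sequences is shown to let a reader see how far reads can tell them apart. It covers coding bases 39 to 128 of Fabp3 and of Fabp4 and 45 to 134 of Fabp5, counted from the A of the start codon (GRCm38). Capitals mark the 51 of 90 bases that were identical in all 3 genes.
Fabp3: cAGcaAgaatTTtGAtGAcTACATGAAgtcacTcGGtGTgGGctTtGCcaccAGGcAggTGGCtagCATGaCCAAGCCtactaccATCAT
Fabp4: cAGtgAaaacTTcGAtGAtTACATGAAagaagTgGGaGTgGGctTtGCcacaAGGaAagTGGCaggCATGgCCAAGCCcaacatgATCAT
Fabp5: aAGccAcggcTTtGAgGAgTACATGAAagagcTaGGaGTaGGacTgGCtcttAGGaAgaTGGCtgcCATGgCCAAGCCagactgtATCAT
Over the whole coding sequence Fabp3 and Fabp4 were 63.6% identical, Fabp4 and Fabp5 60.6%, and Fabp3 and Fabp5 55.6%. The longest run shared by any pair, Fabp3 and Fabp4, was 14 bases, and no 50-base window of Fabp4 recurred in another annotated transcript. Copies of single members were closer. Of 774 windows of Fabp3, 289 (37.3%) recurred in transcripts of other genes, 226 of them in the pseudogene Fabp3-ps1. The others were antisense in Zcchc17 and Gm10570, which overlap Fabp3 itself on the opposite strand. Of the Fabp5 windows 21.1% recurred, most of them in Gm6166. The counts placed on Fabp3-ps1 and Gm6166 were small: on Fabp3-ps1 the wild types had 2, 0 and 2 and the mutants 3, 5 and 22, and at most 2 on Gm6166 in any mouse.

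No member passed the threshold of an adjusted p of 0.05 between the genotypes in edgeR, nor did any in DESeq2. Over all 17667 genes tested, 0.017% were called by edgeR and 2.11% by DESeq2. At an unadjusted p of 0.05 edgeR listed 1 of the 10, Fabp3, and DESeq2 listed 2, Fabp3 and Slc27a2; the shares of all genes were 10.7% (5.06% higher and 5.6% lower) and 10.1%. Fabp3 was also the only member whose 3 Egr1-/- values all lay above the 3 Egr1+/+ values, a pattern found in 8.15% of all genes tested, and no member lay wholly below, against 8.1% of all genes (16.3% in both directions). Fold changes of 4 members were above 0 and those of 6 below, with a median of -0.03 on the log2 scale and a range from -0.34 to 0.68. The median of all genes was 0.00.

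**Figure D1:**
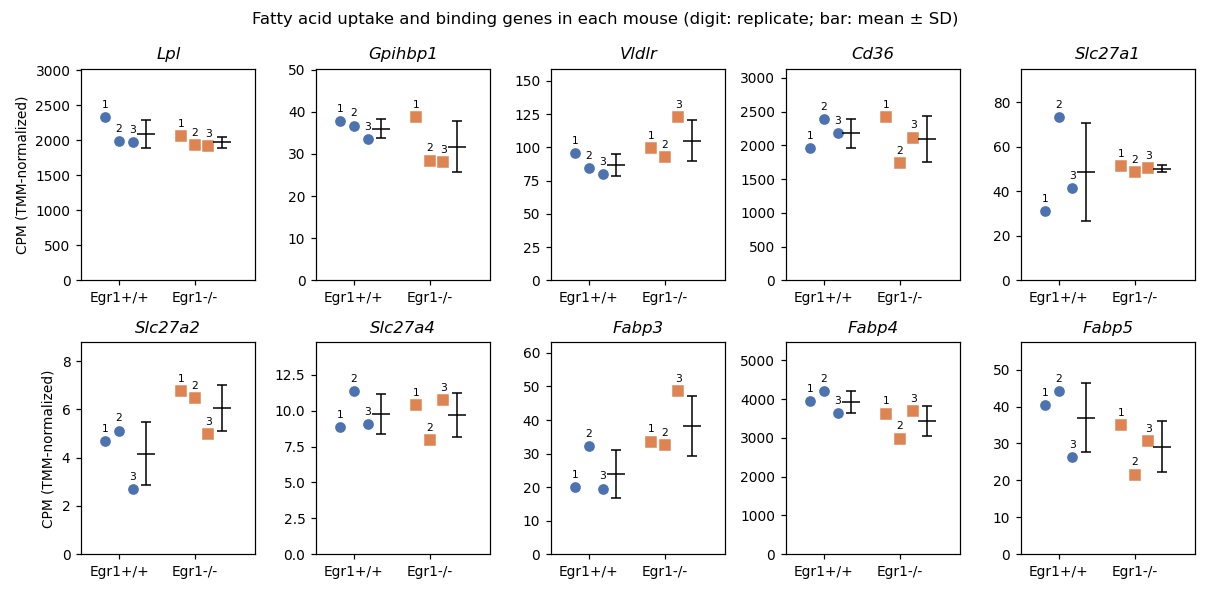
CPM of each member (vertical axes, each from 0) in the 3 Egr1+/+ mice (circles) and the 3 Egr1-/- mice (squares), with the replicate number over each point and the mean ± SD to the right. Only the Fabp3 panel shows no overlap, with 19.6 to 32.2 CPM in Egr1+/+ and 32.5 to 48.6 CPM in Egr1-/-, and Slc27a1 shows the widest Egr1+/+ group.

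Lipolysis at the capillary wall comes first. Lpl (ENSMUSG00000015568.15, chr8:68880491-68907448, plus strand, GRCm38), the lipase itself, stood at 2325, 1984 and 1969 CPM in Egr1+/+ replicates 1 to 3 and at 2064, 1928 and 1915 CPM in Egr1-/- replicates 1 to 3. The groups overlapped and the mutant mice were within 1 narrow band. The log2 fold change was -0.09 with a 95% interval from -0.41 to 0.24 (adjusted p = 0.873), which leaves room for a level between 0.751 and 1.18 times that of wild type.

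Gpihbp1 (ENSMUSG00000022579.10, chr15:75596628-75599481, plus strand), which anchors the lipase on capillary endothelium, had 37.8, 36.8 and 33.5 CPM in Egr1+/+ and 38.7, 28.4 and 28.2 CPM in Egr1-/- mice. Egr1-/- replicate 1 was the highest of all 6 mice and the other two mutants were the lowest. The log2 fold change was -0.18 (95% interval -0.51 to 0.14, adjusted p = 0.722). Endothelial genes followed the same mice, with a summed level of 573 CPM in Egr1-/- replicate 1 and of 384 and 415 CPM in Egr1-/- replicates 2 and 3. Set against that sum, Gpihbp1 made up 7.41, 7.62 and 7.92% in Egr1+/+ and 6.76, 7.40 and 6.78% in Egr1-/-, a log2 difference of -0.13 (p = 0.1 by exact two-sided permutation, below which 3 against 3 mice cannot go). With the median over the endothelial genes in place of their sum the difference was -0.02.

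Vldlr (ENSMUSG00000024924.14, chr19:27216484-27254231, plus strand), the receptor that holds triglyceride-rich lipoproteins at the cell surface, had 95.7, 84.2 and 79.6 CPM in Egr1+/+ and 99.4, 93.0 and 122 CPM in Egr1-/- mice. Egr1-/- replicate 3 was the highest, and 1 mutant lay below the highest wild type. Vldlr differed by 0.28 on the log2 scale (95% interval -0.04 to 0.59, adjusted p = 0.527), between 0.975 and 1.51 times wild type. In a comparison chosen after the values were seen, Vldlr counts per 1000 Lpl counts were 41.2, 42.4 and 40.4 in Egr1+/+ and 48.1, 48.2 and 64.0 in Egr1-/- mice. These ratios did not overlap, and the wild-type mice differed by little. The exact two-sided permutation gave p = 0.1, the lowest that 3 against 3 mice can give. How many of all genes show such a gap against Lpl was not counted, and with no ratio 8.15% of them lay higher in all 3 mutants.

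Transport across the plasma membrane is the step of CD36 and the SLC27 proteins. Cd36 (ENSMUSG00000002944.15, chr5:17781690-17888801, minus strand), the main fatty acid translocase of adipocytes, had 1956, 2394 and 2186 CPM in Egr1+/+ and 2414, 1734 and 2114 CPM in Egr1-/- mice. Both the highest and the lowest value belonged to mutants. For Cd36 the log2 fold change of -0.06 had a 95% interval from -0.45 to 0.32 (adjusted p = 0.929), and it was 0.00 without the most muscle-rich mouse of each genotype. Cd36 counts per Lpl count were 0.841, 1.21 and 1.11 in Egr1+/+ and 1.17, 0.900 and 1.10 in Egr1-/- mice, so neither genotype stood out.

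Slc27a1 (ENSMUSG00000031808.6, chr8:71568882-71587302, plus strand) encodes FATP1, the transporter of adipocytes and muscle. It had 31.1, 73.3 and 41.7 CPM in Egr1+/+ and 51.5, 48.6 and 50.6 CPM in Egr1-/- mice. The coefficient of variation was 45.1% in wild type and 3.05% in the mutants, whose 3 values all lay inside the wild-type range. Its log2 fold change was 0.05 (95% interval -0.55 to 0.64, adjusted p = 0.969). Its sign depended on the wild types kept: without replicate 1 it was -0.21 (adjusted p = 0.851), without replicate 3 -0.06 (adjusted p = 0.974) and without replicate 2, the mouse at 73.3 CPM and the higher muscle-rich one, 0.47 (adjusted p = 0.329). The part of muscle RNA in the Slc27a1 values was not tested.

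Slc27a2 (ENSMUSG00000027359.16, chr2:126552407-126588243, plus strand), a very long chain acyl-CoA synthetase best known from liver and kidney, was the least abundant member. It had 161, 154 and 116 counts in Egr1+/+ and 225, 200 and 154 counts in Egr1-/- mice, that is 4.69, 5.13 and 2.69 CPM against 6.75, 6.46 and 4.98 CPM. The groups overlapped by 1 mutant, replicate 3, which lay under Egr1+/+ replicate 2. On the log2 scale the difference was 0.55 (95% interval -0.03 to 1.12, unadjusted p = 0.0612, adjusted p = 0.490), and without Egr1+/+ replicate 3 it was 0.30. Gm26697, a long noncoding RNA on the opposite strand, shares 13% of the Slc27a2 windows and had 0 to 10 counts per mouse.

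Slc27a4 (ENSMUSG00000059316.2, chr2:29802634-29817522, plus strand), which encodes FATP4, had 8.85, 11.4 and 9.07 CPM in Egr1+/+ and 10.4, 7.97 and 10.7 CPM in Egr1-/- mice. The values were interleaved. The log2 fold change of -0.01 had a 95% interval from -0.39 to 0.37 (adjusted p = 0.995).

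Inside the cell, Fabp4 (ENSMUSG00000062515.3, chr3:10204088-10208576, minus strand), the adipocyte fatty acid binding protein, had the highest count of the 10: 3955, 4200 and 3628 CPM in Egr1+/+ and 3625, 2980 and 3686 CPM in Egr1-/- mice. The mutants took the lowest places save that replicate 3 lay above Egr1+/+ replicate 3. Its log2 fold change was -0.20 (95% interval -0.56 to 0.17, adjusted p = 0.730).

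Fabp5 (ENSMUSG00000027533.10, chr3:10012548-10016607, plus strand), the epidermal form, which macrophages and adipocytes also make, lies 187 kb from Fabp4. It had 40.4, 44.1 and 26.3 CPM in Egr1+/+ and 35.1, 21.6 and 30.7 CPM in Egr1-/- mice. The groups overlapped, with Egr1-/- replicate 2 the lowest. The log2 fold change of -0.34 (95% interval -0.85 to 0.16, adjusted p = 0.648) was the most negative of the 10. Macrophage markers stood beside it. In edgeR all 7 had a fold change below 0, with 4 at an unadjusted p under 0.05 and 0 after adjustment. They summed to 244 to 364 CPM in Egr1+/+ and 177 to 246 CPM in Egr1-/- mice. They were not alone in this. All 7 stromal progenitor markers also had a fold change below 0, and summed to 438 to 456 CPM in Egr1+/+ and 275 to 369 CPM in Egr1-/- mice. Over the 6 mice Fabp5 correlated at 0.58 with the macrophage sum. It correlated more highly with the endothelial (0.75), Schwann cell (0.70) and stromal progenitor (0.63) sums. The part of any of these cell types in the Fabp5 values was not tested.

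**Figure D2:**
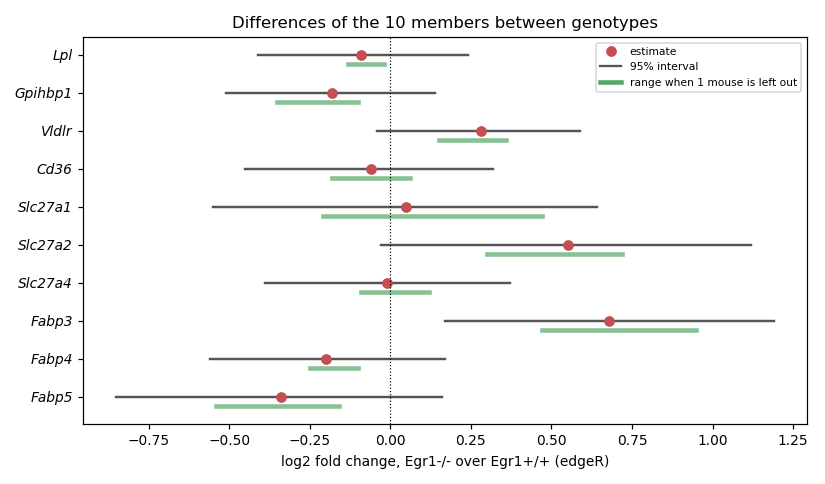
Log2 fold change of each member, Egr1-/- over Egr1+/+ (points), with its 95% interval (grey lines) and the range obtained when each mouse was left out in turn (green bars). The interval of Fabp3 (0.17 to 1.19) is the only one clear of 0, and the leave-one-out bars of Cd36, Slc27a1 and Slc27a4 cross 0.

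Fabp3 (ENSMUSG00000028773.8, chr4:130308595-130315463, plus strand), the heart and muscle fatty acid binding protein, which brown adipocytes also make in quantity, had 688, 966 and 843 counts in Egr1+/+ and 1118, 1006 and 1502 counts in Egr1-/- mice. This came to 20.0, 32.2 and 19.6 CPM against 33.6, 32.5 and 48.6 CPM. Every mutant lay above every wild type, though Egr1+/+ replicate 2 and Egr1-/- replicate 2 were nearly level. The mean was 23.9 ± 7.15 CPM (SD, n = 3) in Egr1+/+ and 38.2 ± 8.99 CPM (SD, n = 3) in Egr1-/-, and the log2 fold change was 0.68 with a standard error of 0.225 (95% interval 0.17 to 1.19). In edgeR the unadjusted p was 0.0147 and the adjusted p 0.325. DESeq2 gave an adjusted p of 0.0776. With no filter on low counts Fabp3 did pass in edgeR (adjusted p = 0.000924), in a fit that called 1.44% of 38261 genes. Zcchc17, which overlaps Fabp3 on the opposite strand, had 513 to 883 counts per mouse and a log2 fold change of -0.15, and whether its reads reached the Fabp3 count was not tested. An exact two-sided permutation of the mice gave p = 0.1, its lower limit here. The unadjusted p was above 0.05 in 3 of the 6 edgeR fits that left out a mouse: 0.0595 without Egr1+/+ replicate 1 (log2 fold change 0.55), 0.0574 without Egr1+/+ replicate 3 (0.55) and 0.0609 without Egr1-/- replicate 3 (0.47).

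Muscle makes Fabp3, and the muscle-rich mouse of each genotype was also its highest in Fabp3. The 10 muscle markers summed to 983, 2877 and 183 CPM in Egr1+/+ and 94.2, 323 and 2466 CPM in Egr1-/- mice, with Myh4, a fast myosin heavy chain, the most abundant. Without both muscle-rich mice the log2 fold change of Fabp3 was 0.74 (unadjusted p = 0.000811, adjusted p = 0.367) in a fit where 8.66% of all genes had an unadjusted p under 0.05 and 0% were called, and with the muscle level as a covariate it was 0.81 (unadjusted p = 0.000715, adjusted p = 0.135). Neither passed the threshold. The omission was chosen after the data were seen and took out the highest Fabp3 value of each genotype, which narrows the spread that its p is set against. In the single mouse of each genotype lowest in muscle RNA, Egr1+/+ replicate 3 and Egr1-/- replicate 1, Fabp3 stood at 19.6 and 33.6 CPM. The part of muscle RNA in the Fabp3 values was not tested.

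Fabp3 is also a gene of brown and beige adipocytes. The 7 beige markers summed to 668, 536 and 521 CPM in Egr1+/+ and 1302, 920 and 1539 CPM in Egr1-/- mice. In edgeR none of the 6 that were tested passed the adjusted threshold. All 6 had a positive fold change at an unadjusted p under 0.05 in edgeR, with a median of 1.03. In DESeq2 Ucp1, Dio2, Cidea, Cox8b and Ppargc1a passed the adjusted threshold, and Cox7a1 did not (adjusted p = 0.0737). Of the 6, 5 did not overlap between the groups. Ucp1, the uncoupling protein and the most abundant of them, had 400, 316 and 305 CPM in Egr1+/+ and 858, 571 and 949 CPM in Egr1-/- mice. Its log2 fold change was 1.22 (adjusted p = 0.151 in edgeR and 2.85e-07 in DESeq2). Within the genotypes the order of mice was not shared: the mutant with the most Ucp1, replicate 3, also had the most Fabp3, whereas the wild type with the most Ucp1, replicate 1, had 20.0 CPM of Fabp3 and replicate 2 had the most. Over the 6 mice the correlation of Fabp3 with the beige sum was 0.77 and with the muscle sum 0.34, as a description of libraries that share their genotype. The part of beige cells in the Fabp3 values was not tested.

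**Figure D3:**
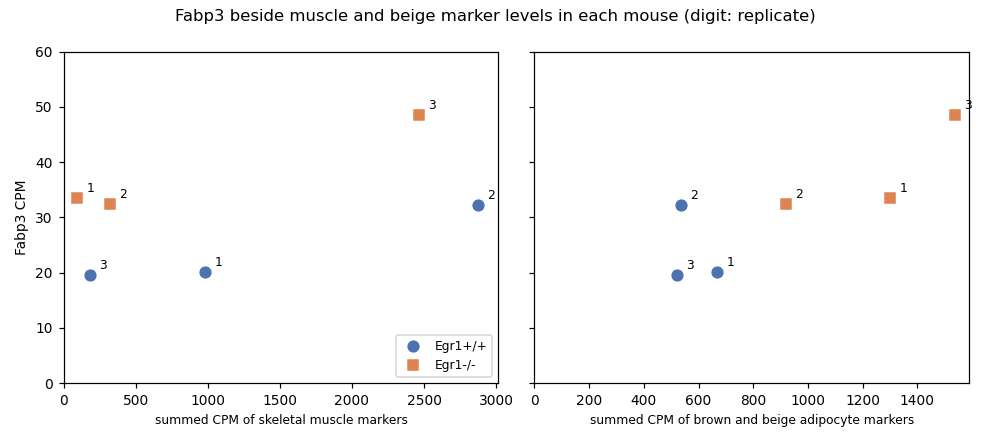
Fabp3 CPM (vertical axis, from 0) against the summed CPM of 10 skeletal muscle markers (left) and of 7 brown and beige markers (right), one point per mouse, circles Egr1+/+ and squares Egr1-/-, with the replicate number beside each. On the left the muscle-rich mice of both genotypes are the highest of their group, and on the right the Egr1-/- mice lie at 920 CPM or more and the Egr1+/+ mice at 668 CPM or less.

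The balance of the binding proteins was read within each library, where total depth and the scaling between mice play no part. This comparison was chosen after the values were seen. Fabp3 counts per 1000 Fabp4 counts were 5.06, 7.66 and 5.39 in Egr1+/+ and 9.26, 10.9 and 13.2 in Egr1-/- mice. The lowest mutant lay above the highest wild type, by more than for Fabp3 alone, and the mean ratio was 1.85 times as high in Egr1-/- (6.04 ± 1.41 against 11.1 ± 1.97, SD, n = 3 each), with a log2 difference of 0.89 and a range of 0.76 to 1.07 when each mouse was left out. Fabp5 counts per 1000 Fabp4 counts showed no such gap, at 10.2, 10.5 and 7.25 against 9.67, 7.24 and 8.32. For the Fabp3 ratio the exact two-sided permutation gave p = 0.1, the lowest value open to 3 against 3 mice. Part of its gap came from Fabp4, whose own log2 fold change was -0.20 (95% interval -0.56 to 0.17). The share of all genes with a gap of this kind against Fabp4 was not counted. Without any ratio, 8.15% of them lay higher in all 3 mutants.

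Against the 8 adipocyte markers the order of the genotypes shifted for several members. That sum itself did not overlap between the genotypes, at 3248, 3925 and 3617 CPM in Egr1+/+ and 3057, 2752 and 2885 CPM in Egr1-/- mice, a log2 difference of -0.31. Of all genes tested, 31.9% had a ratio to it that was higher in all 3 mutants than in any wild type, and 1.53% had one that was lower. Its genes, read after their values were seen, did not all differ in 1 direction. Adipoq, Cfd, Retn, Lep and Cidec had fold changes below 0 and Lipe, Pnpla2 and Plin1 above 0. None passed the adjusted threshold in the main edgeR fit. In DESeq2 Lep (adjusted p = 0.0186) and Retn (0.0465) did, and in edgeR with no filter on low counts Cfd (0.0193) and Lep (0.0425) did. Fabp3 made up 0.616, 0.819 and 0.541% of the sum in Egr1+/+ and 1.10, 1.18 and 1.68% in Egr1-/-. For Cd36 the shares were 60.2, 61.0 and 60.4% against 79.0, 63.0 and 73.3%, and for Vldlr 2.15 to 2.95% against 3.25 to 4.25%. Slc27a2 and Slc27a4 did not overlap on this scale either, with log2 differences of 0.89 and 0.30, while those of Cd36 and Vldlr were 0.24 and 0.58. Each of these 5, Fabp3 included, gave p = 0.1 by exact two-sided permutation, again its lower limit. For Slc27a4 the groups were nearly level at their edge, at 0.2898% in Egr1-/- replicate 2 and 0.2893% in Egr1+/+ replicate 2. With the median over the adipocyte genes in place of their sum, Cd36 (0.31) and Slc27a4 (0.37) gave p = 0.2 in the same exact test. Cd36 and Slc27a4 differed by no more than the sum itself, in the other direction.

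Per transcript length the members spanned a wide range. With the union of annotated exons as length, the mean levels in Egr1+/+ mice were 875 RPKM (CPM per kilobase of exon) for Fabp4, 607 for Cd36 and 200 RPKM for Lpl. These 3 genes held 96.3 to 97.3% of all member counts in each mouse, and the 10 members together 1.70 to 2.04% of the counts on genes outside the mitochondrial genome. Fabp3 followed at 29.1 ± 8.68 RPKM, Gpihbp1 at 14.1 ± 0.876 RPKM and Fabp5 at 10.4 ± 2.64 RPKM (SD, n = 3), and then Vldlr at 8.59 RPKM and Slc27a1 at 8.34 RPKM. Slc27a4 at 2.21 RPKM and Slc27a2 at 1.11 RPKM were the lowest. Among neighbours in this order, Fabp5 spread from 7.37 to 12.4 RPKM and Slc27a1 from 5.32 to 12.6 RPKM, so that Fabp5, Vldlr and Slc27a1 did not differ beyond their spread. The level of Fabp4 depended most on the length used: per length of its longest protein-coding transcript it was 4383 RPKM, and Fabp5, at 37.4 RPKM, then stood above Fabp3. In Egr1-/- mice the first 5 places per union of exons were taken by the same genes in the same order, with Fabp3 at 46.4 RPKM. Per longest protein-coding transcript Fabp3 stood above Fabp5 in the mutants (46.4 against 29.5 RPKM), the reverse of wild type.

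**Figure D4:**
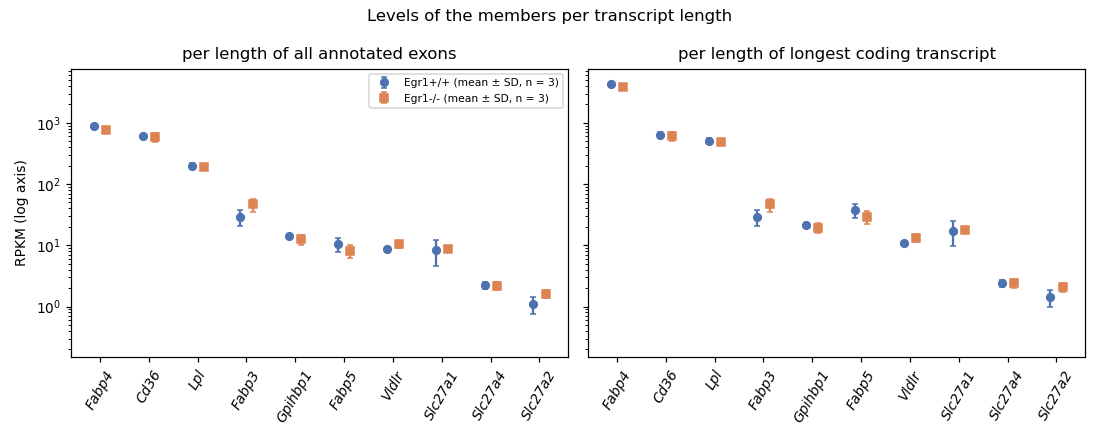
Mean RPKM ± SD (log axis, n = 3 mice) of the 10 members in Egr1+/+ (circles) and Egr1-/- (squares), per length of all annotated exons (left) and of the longest protein-coding transcript (right). Fabp4, Cd36 and Lpl stand well above the others in both panels, and Fabp4 and Fabp5 move up in the right one.

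The members did not vary as 1 group among the mice. Of 45 pairs, 28 had a positive Pearson correlation of log2 CPM over the 6 mice, with a median of 0.16, and all values share the same 6 libraries. Fabp4 and Fabp5 were the closest pair (0.92), followed by Cd36 and Slc27a4 (0.85), and Fabp3 went with Vldlr (0.73) more than with Fabp4 (-0.16). Gpihbp1 went with the endothelial sum (0.90) and Vldlr with the beige sum (0.90), as a description of libraries that share their genotype. Other pairs were nearly as high: Lpl with the Schwann cell sum (0.85), Slc27a1 with the mammary epithelial sum (0.83) and Gpihbp1 with the stromal progenitor sum (0.82). Among the other 17657 tested genes, the 2 most alike to Fabp3 were Myl6b (0.993) and Chodl (0.992), both at under 1 CPM, those for Vldlr were Cxadr (0.993) and Sprtn (0.992), and that for Slc27a1 was Cox7a2l (0.999). With 6 mice, 61 genes reached a correlation of 0.95 with Fabp3 and 95 with Vldlr.

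The rest of the pathway was read in 5 lists of 81 genes, 69 of which were tested. In edgeR 0 passed the adjusted threshold, and 18 (12 higher and 6 lower in Egr1-/- mice) had an unadjusted p under 0.05, that is 26.1% against 10.7% of all genes. The lists were drawn up with earlier results of these data known, so these shares are not an independent comparison. DESeq2, which called 2.11% of all genes, called 4 here, all with positive fold changes: Apoc1, Ppara, Ppargc1a and Ppargc1b. The regulators of fatty acid uptake had the largest share, with 5 of 15 higher and 1 lower at an unadjusted p under 0.05 and a median log2 fold change of 0.28. Ppargc1a, a coactivator that drives mitochondrial and thermogenic genes and is also 1 of the beige markers, had 32.1, 19.9 and 36.4 CPM in Egr1+/+ and 58.7, 48.4 and 79.7 CPM in Egr1-/- mice (log2 fold change 1.08, adjusted p = 0.193 in edgeR and 0.000924 in DESeq2). Its relative Ppargc1b had 14.3, 10.6 and 11.7 CPM against 21.9, 20.1 and 27.2 CPM (0.92, adjusted p = 0.155 in edgeR and 0.000292 in DESeq2). Ppara, a receptor that fatty acids activate, had 30.9, 22.9 and 27.3 CPM against 42.2, 35.8 and 65.4 CPM (0.82, adjusted p = 0.236 in edgeR and 0.0126 in DESeq2). In each of the 3 every mutant lay above every wild type, and Egr1-/- replicate 3 was the highest mouse, as it was for Fabp3 and Vldlr.

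Among the 14 tested genes of the other transport proteins and acyl-CoA synthetases, 4 were higher and 0 lower at an unadjusted p under 0.05, with a median of 0.21. The enzymes Acsf2 (log2 fold change 0.48), Acss1 (0.46) and Acsf3 (0.38), which activate fatty acids, acetate and malonate, had the lowest p of the list, with adjusted p from 0.220 to 0.404. Of 18 tested genes around the lipase, 3 were higher and 2 lower at that level, with a median of -0.03. Apoc1, an apolipoprotein that hinders lipoprotein lipase, had 20.7, 28.9 and 19.3 CPM in Egr1+/+ and 32.9, 39.2 and 38.9 CPM in Egr1-/- mice (0.69, adjusted p = 0.220 in edgeR and 0.0140 in DESeq2). Lmf1, which the lipase needs to fold, stood at 0.44, and Glce, an enzyme of heparan sulfate synthesis, at -0.45. The 13 genes of caveolae and the CD36 family had 0 higher and 2 lower, with a median of -0.06, the coat proteins Cavin3 (-0.63), Cavin1 (-0.42) and Cavin2 (-0.28) having the lowest p. Cavin3 passed the adjusted threshold when Egr1-/- replicate 1 was left out. Of 9 tested genes among the other binding proteins, 1 was lower at that level, Dbi, the acyl-CoA binding protein (-0.59). Pmp2, the binding protein of myelin, stood at -0.69 and Scp2, which binds sterols and fatty acids, at -0.24. Beside Pmp2, 4 of 5 Schwann cell markers had a fold change below 0, and their sum was 235 to 336 CPM in Egr1+/+ and 162 to 208 CPM in Egr1-/- mice. Their part in the Pmp2 value was not tested.

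**Figure D5:**
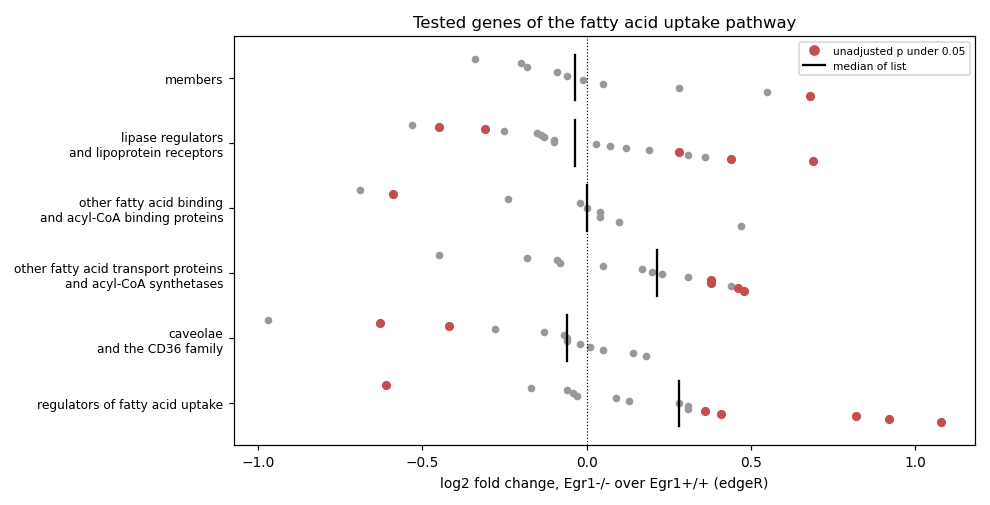
Log2 fold change, Egr1-/- over Egr1+/+ (horizontal axis), of each tested gene of the 10 members and of the 5 wider lists, with genes at an unadjusted p under 0.05 in red and the median of each list as a bar. The members centre on -0.03 and the regulators on 0.28, with Ppargc1a at 1.08 on the far right.

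The start sites of 6 members (Cd36, Fabp3, Slc27a1, Slc27a2, Slc27a4 and Vldlr) were covered by 9 RefSeq promoter windows on GRCm38.p6, which were searched on both strands because EGR1 was the protein removed. The EGR1 motif GCGNGGGCG was in 0 of these 9 windows and in 5.55% of 32851 windows of all genes. Its last letters alone, GNGGGCG, were in 4 of the 9 against 31.3% of all windows. For each of the 4 genes 1 match is shown in capitals, on the strand of the gene, with its surroundings.
Fabp3, chr4:130308568-130308594, plus strand: caacaggaccGCGGGCGccgctgacgt
Slc27a1, chr8:71570565-71570591, plus strand: ggtacacgctGGGGGCGgggccaggct
Slc27a4, chr2:29802440-29802466, plus strand: caaatggtctGTGGGCGggtttatgct
Slc27a2, chr2:126552944-126552970, plus strand: agccccacgaGGGGGCGggacccacgg
Fabp3, the member with the largest fold change, and Slc27a4, with the one closest to 0, both held a match. The stretch shown for Fabp3 ends at the base before the annotated start of the gene. A match of letters says nothing of binding, which was not measured here.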

How the data were processed

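SC-WAT RNA of 3 Egr1+/+ and 3 Egr1-/- mice was depleted of ribosomal RNA and made into strand-specific libraries. Per the labels and methods, the authors mapped reads with TopHat2 and Bowtie2 to GRCm38 and assigned them to GENCODE genes with featureCounts, and they deposited raw counts per gene with no normalization. The strand and multiple-mapping settings of the counting are not given in the sources used here, and the sources differ on read layout. If counting ignored strand, reads of Zcchc17, which overlaps Fabp3 on the opposite strand (513 to 883 counts, log2 fold change -0.15), could add to Fabp3. Identifiers were matched to GENCODE M21 without version (46574 of 47069).

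The counts were fitted with edgeR 4.0.16 in R 4.3.3 (TMM, filterByExpr, quasi-likelihood test, Benjamini-Hochberg threshold 0.05) and, as an alternative, DESeq2 1.42.0, over 17667 genes. Intervals of 95% came from the quasi-likelihood fit. Log2 CPM used a prior count of 2, and 0.1 CPM was added for medians over markers. Single values were compared by exact permutation. Scripts were tested on simulated data. Total counts were 29661984 to 42357981 per mouse, and the intervals hold counting error and the spread between mice together. The edgeR and DESeq2 p-values set a difference against counting error and the spread between these 6 mice. Each gene's spread was estimated partly from the other genes. The permutation p-values came from regrouping the 6 mice. The mice came from fewer litters than mice, so that some were littermates, which the tests treat as independent because no label ties a library to a litter. The labels give no sequencing batch.

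The members, gene lists and tests were chosen with earlier results of these data known. Named were all members, Egr1, up to 3 genes of lowest p in each wider list, the most abundant gene of a marker list, the 2 genes most alike to a member, and annotated copies. Alternatives were other scalings, no count filter, no mitochondrial genes, a replicate block, each mouse left out, a muscle covariate and other transcript lengths. Lengths of longest protein-coding transcripts, count ratios and the omission of both muscle-rich mice were added after the data were seen.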

Additional observations from a re-analysis of the deposited data

How the results depend on the processing

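Of 150 alternative values for the 10 members, 138 kept their sign and their side of the threshold. The 1 that passed it was Fabp3 with no filter on low counts (log2 fold change 0.70, adjusted p = 0.000924), so that 1 member was called there, with 1.44% of 38261 genes called. The 11 with the opposite sign were near 0 and none was called: Cd36 went to 0.00 without the most muscle-rich mouse of each genotype and ranged from -0.18 to 0.06 when 1 mouse was left out, Slc27a1 went to -0.08 with library totals and ranged from -0.21 to 0.47, and Slc27a4 went to 0.01 with no filter and to 0.04 both with the muscle covariate and without the muscle-rich mice and ranged from -0.09 to 0.12. Library totals without a composition factor moved the median of all genes to -0.15 and that of the members to -0.19, with 6 members below the median of all genes as with TMM. In the wider lists DESeq2 called 4 genes and the fit with no filter 7, where 2.11% and 1.44% of all genes were called. Leaving out 1 mouse gave 0 to 1, the 1 being without Egr1-/- replicate 1. Members at an unadjusted p under 0.05 numbered 0 to 3. Fabp3 was not among them in 3 of the 6 fits without 1 mouse: none was listed without Egr1+/+ replicate 1, only Fabp5 without Egr1+/+ replicate 3 and only Slc27a2 without Egr1-/- replicate 3. Those of the wider lists numbered 8 to 19.

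When replicate number entered as a block, 0 members and 0 genes of the wider lists were called, 2 members (Fabp3 and Slc27a2) had an unadjusted p under 0.05, and Fabp3 was 0.69 (adjusted p = 0.385). Deviations of same-numbered mice correlated at -0.0888, 0.106 and -0.126. These values gave no sign that the numbers pair the mice, but with 3 mice per genotype and no litter labels they cannot exclude it.

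With 3 mice per genotype no exact test of a single value can go below 0.1, and the interval of every member but Fabp3 included 0. The 226 of 774 Fabp3 windows that recur in the pseudogene Fabp3-ps1 limit that value if reads mapping to several places were dropped or split.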
